A study of Mus musculus with 14 samples.

Results

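Kruppel-like factors (KLFs) are DNA-binding proteins that read GC-rich and CACCC sequences through a conserved set of C-terminal zinc fingers. The 10 members described here were the genes Klf2, Klf3, Klf4, Klf5, Klf6, Klf7, Klf9, Klf10, Klf13 and Klf16. They were taken by gene name from a table of 35275 genes, and all 10 were found. The table held 7 other KLF genes (Klf1, Klf8, Klf11, Klf12, Klf14, Klf15 and Klf17), which served as a comparison list.

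RNA was sequenced from 14 samples of mouse KMF ovarian tumor cells, which derive from ID8 ovarian epithelial cells of the C57Bl6 strain passaged in mice and carry a gain of the FAK gene Ptk2. All 14 were grown without anchorage as tumorspheres in serum-free XF medium for 5 days. The 5 lines were parental KMF (n = 3), a single CRISPR clone without FAK called KT13 (FAK KO, n = 3), and KT13 re-expressing lentiviral GFP-FAK (FAK-WT, n = 3), kinase-inactive GFP-FAK-R454 (n = 2) or an active β-catenin without its GSK phosphorylation sites (β-catenin ΔGSK, n = 3). The comparisons addressed which transcripts followed FAK, its kinase activity and β-catenin in tumorspheres. The re-expressing lines all share the FAK deletion and the history of clone KT13, and can be compared with FAK KO within 1 clonal background. They were also virally transduced, drug-selected and sorted, and the labels name no vector control for FAK KO. Their differences from FAK KO include these steps, which cannot be told apart from the transgene. KMF and FAK KO differ by cloning as well as by FAK, and these cannot be told apart. The labels call the RNA samples independent, and the study's methods place those of parental KMF at different passages. For the KT13 lines separate cultures are not stated, so p-values measure the spread between these samples, which may be technical there.

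As background, KLFs fall into groups by the partners they bind. Klf2, Klf4, Klf5, Klf6 and Klf7 act mostly as activators through acetyltransferases, Klf3 (with Klf8 and Klf12) represses through CtBP, and Klf9, Klf10, Klf13 and Klf16 (with Klf11 and Klf14) recruit Sin3A. Klf4 and Klf5 have opposed roles in gut epithelium, with Klf4 in differentiated cells and Klf5 in dividing crypt cells, and both are used as markers of pluripotency. Several KLF genes are themselves induced quickly by growth factors, by ERK5 and MEF2 (Klf2 and Klf4), by TGF-β (Klf10) or by glucocorticoids (Klf9).

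Values are FPKM, fragments per kilobase of gene length scaled to the fragments assigned to genes in each sample, so levels can be compared between genes per length. Fragments assigned to genes ranged from 25390558 to 35289859 per sample (median 28720224). Ptk2 RNA persisted in FAK KO (17.6 to 20.5 FPKM) below KMF (23.9 to 24.8 FPKM), and was higher in FAK-WT (42.3 to 45.4 FPKM) and FAK-R454 (59.2 and 65.5 FPKM), where the transgene adds to it. Axin2, a target of β-catenin, was at 102 to 114 FPKM in β-catenin ΔGSK, against 0.810 to 0.839 FPKM in FAK KO. Ovarian surface and mesothelial markers were present (Krt8, Krt18, Krt19, Wt1 and Msln each at 43.2 FPKM or more in every sample), with Krt7 and Lhx9 each below 1 FPKM. Their levels moved between lines: Krt8 averaged 569 FPKM in FAK-WT against 317 in FAK KO, Wt1 227 FPKM in β-catenin ΔGSK against 97.8 in FAK KO, and Upk3b was at 31.1 and 32.0 FPKM in FAK-R454 against 3.27 to 5.08 in FAK KO. Of 7 tested, 5 were higher and 1 lower in FAK-WT than in the knockout clone, beside 40.8% of all genes that changed by the same test. The part of these marker shifts in the KLF values was not tested. The 4 Mullerian markers Pax8, Ovgp1, Epcam and Cdh1 summed to 0.727 to 1.65 FPKM. Of the leukocyte markers Cd3e was at 0 in every sample, and Cd68 made up nearly all of a sum of 1.09 to 12.3 FPKM. FAK-WT replicate 3 stood apart from the other FAK-WT samples among the KLFs. Its 10 members summed to 360 FPKM, against 293 and 307 FPKM in replicates 1 and 2.

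Klf4 was the most abundant KLF in every line. It held 42.5% to 45.2% of the summed FPKM of the members in KMF, 34.5% to 37.7% in FAK KO, FAK-WT and FAK-R454, and 26.5% to 28.6% in β-catenin ΔGSK. The sum of the members was highest in KMF (398 to 471 FPKM) and lowest in β-catenin ΔGSK (239 to 248 FPKM), and FAK KO (289 to 306 FPKM) and FAK-R454 (292 and 303 FPKM) lay between them. Klf3, Klf9, Klf10 and Klf13 followed at 20.5 to 78.1 FPKM, then Klf2, Klf6 and Klf16 at 7.60 to 21.4 FPKM. Klf5 (0.685 to 3.73 FPKM) and Klf7 (0.499 to 2.03 FPKM) were scarce. The fewest fragments behind any member were 33, for Klf5 in FAK KO. Between the lowest and the highest line the mean level differed 4.68-fold for Klf5, 3.71-fold for Klf7 and 2.92-fold for Klf4, but 1.28-fold for Klf16 and 1.20-fold for Klf6.

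**Figure D1:**
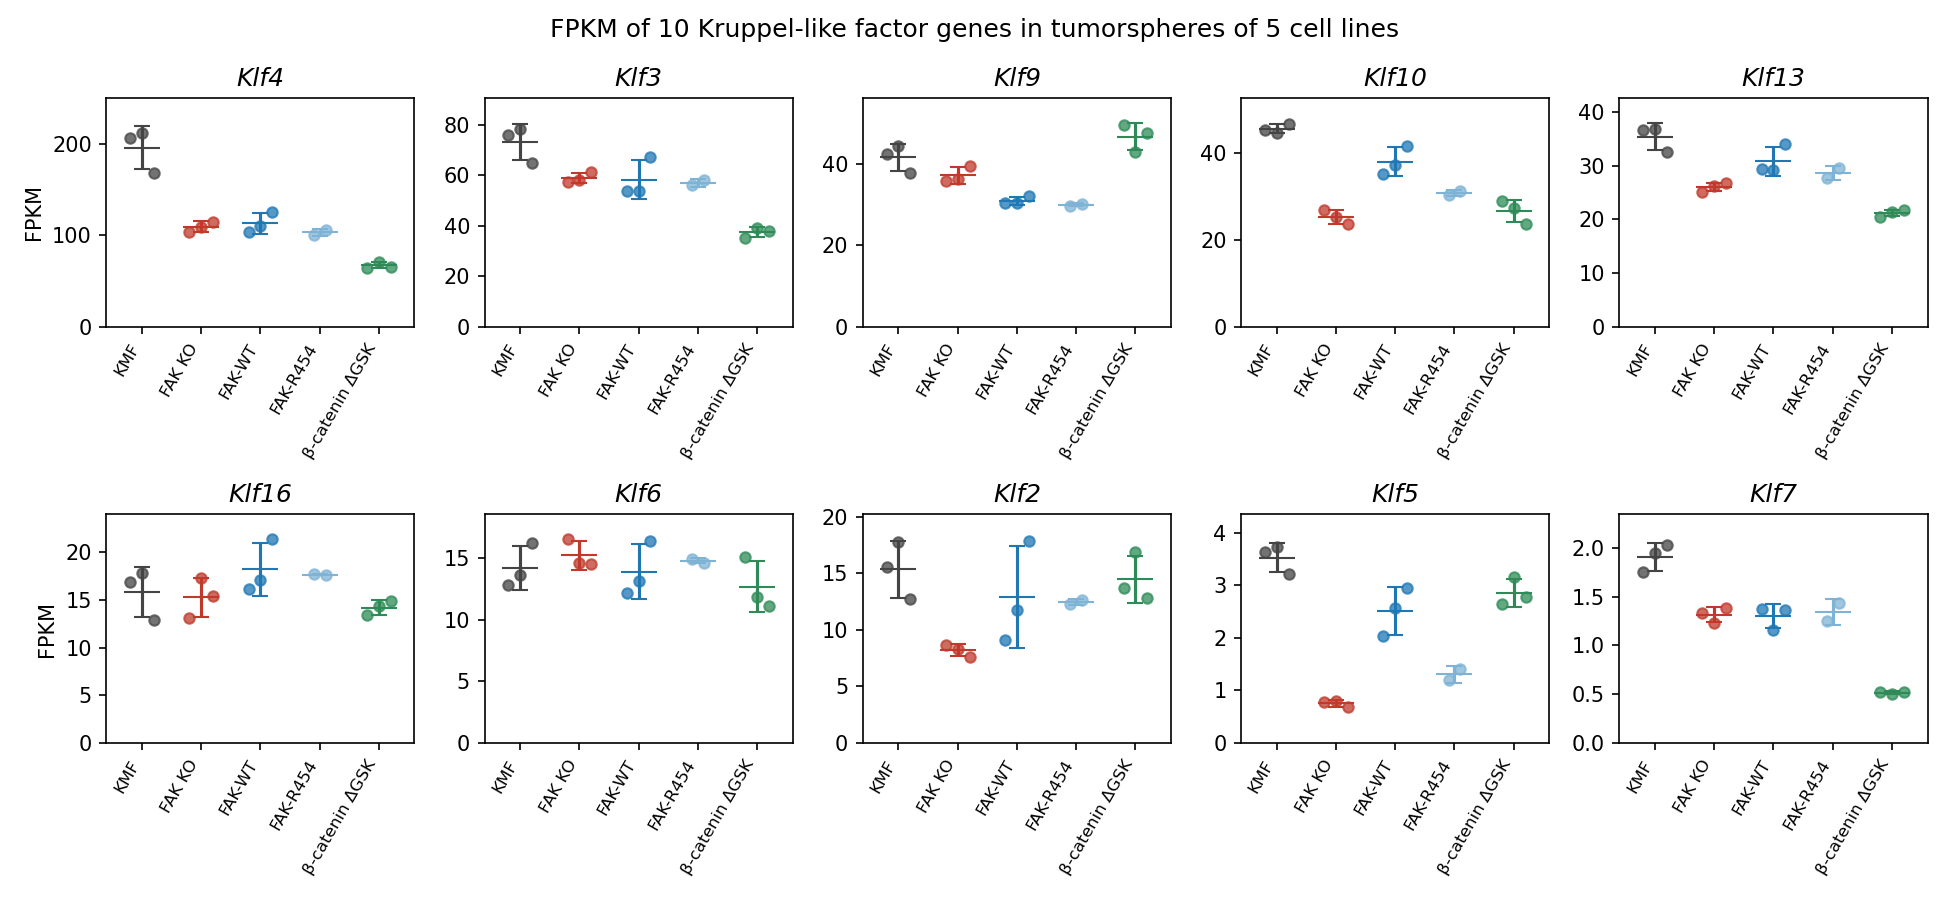
FPKM of the 10 Kruppel-like factor genes in each of 14 tumorsphere samples (points), with the mean and SD of each line (horizontal mark and bar, n = 2 for FAK-R454 and 3 for the other lines). Klf5 is lowest in FAK KO (0.685 to 0.802 FPKM), whereas Klf3, Klf4, Klf7 and Klf13 are highest on average in KMF and lowest in β-catenin ΔGSK.

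Lines were compared in pairs by limma on log2(FPKM + 0.1) over all genes with a mean above 1 FPKM in at least 1 of the lines, with Benjamini-Hochberg adjustment over all of them. A gene is called changed at an adjusted p under 0.05, and passes the 2-fold call if the log2 difference is also at least 1 and the higher line averages above 1 FPKM. Folds are on the log2(FPKM + 0.1) scale and understate changes of scarce genes. All 10 members were tested in each of the 10 pairs. Klf5 in FAK KO and Klf7 in β-catenin ΔGSK average below 1 FPKM and entered through the line they were compared with.

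In FAK-WT against FAK KO, Klf5 rose 3.04-fold, Klf2, Klf10 and Klf13 rose by smaller amounts, and Klf9 fell. That is 5 of 10 members changed, 4 higher and 1 lower, beside 40.8% of all genes tested. Klf5, 1 member, passed the 2-fold call, beside 4.62% of all genes. The median log2 difference of the members was 0.14, and that of all genes -0.08. The count was 3 without FAK KO replicate 1 or 2, and 2 without FAK KO replicate 3 or FAK-WT replicate 2. The share of all genes called with samples left out was not counted, here and below, so these counts have no share beside them. Collagen and stromal markers differed in the same comparison: Col1a1 was at 7.57 to 11.8 FPKM in FAK-WT against 0.928 to 1.53 FPKM in FAK KO, and Pdgfra at 8.19 to 11.7 against 2.65 to 3.25 FPKM, while Dcn, the most abundant of the 5 fibroblast markers, averaged 113 against 99.0 FPKM and was not called (0.20, adjusted p = 0.247), and Col1a2 and Lum were at or near 0. The macrophage marker Cd68 was at 6.60 to 12.3 FPKM against 2.79 to 3.15 FPKM, with the pan-leukocyte Ptprc at 0 in both lines. Their part in the KLF values was not tested.

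In FAK-R454 against FAK KO, Klf2, Klf5 and Klf10 rose and Klf9 fell. These were 4 of 10 members, 3 higher and 1 lower, beside 19.7% of all genes, and 0 members passed the 2-fold call, beside 2.74% of all genes. The median difference was 0.08 for the members and -0.03 for all genes. Without FAK KO replicate 3, or either FAK-R454 sample, 1 member, Klf2, was called. Col1a1 (9.04 and 11.2 FPKM) and Pdgfra (8.91 and 8.84 FPKM) were high here too, Dcn was not called (0.14, adjusted p = 0.506), and their part was not tested. A fit without 1 of the 2 FAK-R454 samples has no spread of its own for that line and takes the remaining sample to vary like the other line, here and wherever such a fit is given.

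In β-catenin ΔGSK against FAK KO, Klf2, Klf5 and Klf9 rose and Klf3, Klf4, Klf7 and Klf13 fell. The 7 of 10 members changed stand beside 58.1% of all genes. Klf5 (higher) and Klf7 (lower) passed the 2-fold call, beside 12.1% of all genes. The medians were -0.18 for the members and -0.09 for all genes.

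In KMF against FAK KO, Klf2, Klf3, Klf4, Klf5, Klf7, Klf10 and Klf13 were higher and 0 members lower. This is 7 of 10 members, beside 51.8% of all genes, with Klf5 alone past the 2-fold call, beside 8.01% of all genes. The median difference was 0.47 for the members and -0.05 for all genes. Stromal and endothelial markers differed as well, with Dcn at 33.1 against 99.0 FPKM on average, Pdgfra at 9.06 against 3.03 FPKM and Tek at 28.7 against 17.4 FPKM, and their part in the KLF values was not tested.

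In FAK-WT against FAK-R454, Klf5 was higher and no other member was called. This is 1 of 10 members, beside 7.82% of all genes, and 0 passed the 2-fold call, beside 1.44% of all genes. The 4 comparisons with FAK KO use the same 3 FAK KO samples, so their directions are not independent of each other.

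**Figure D2:**
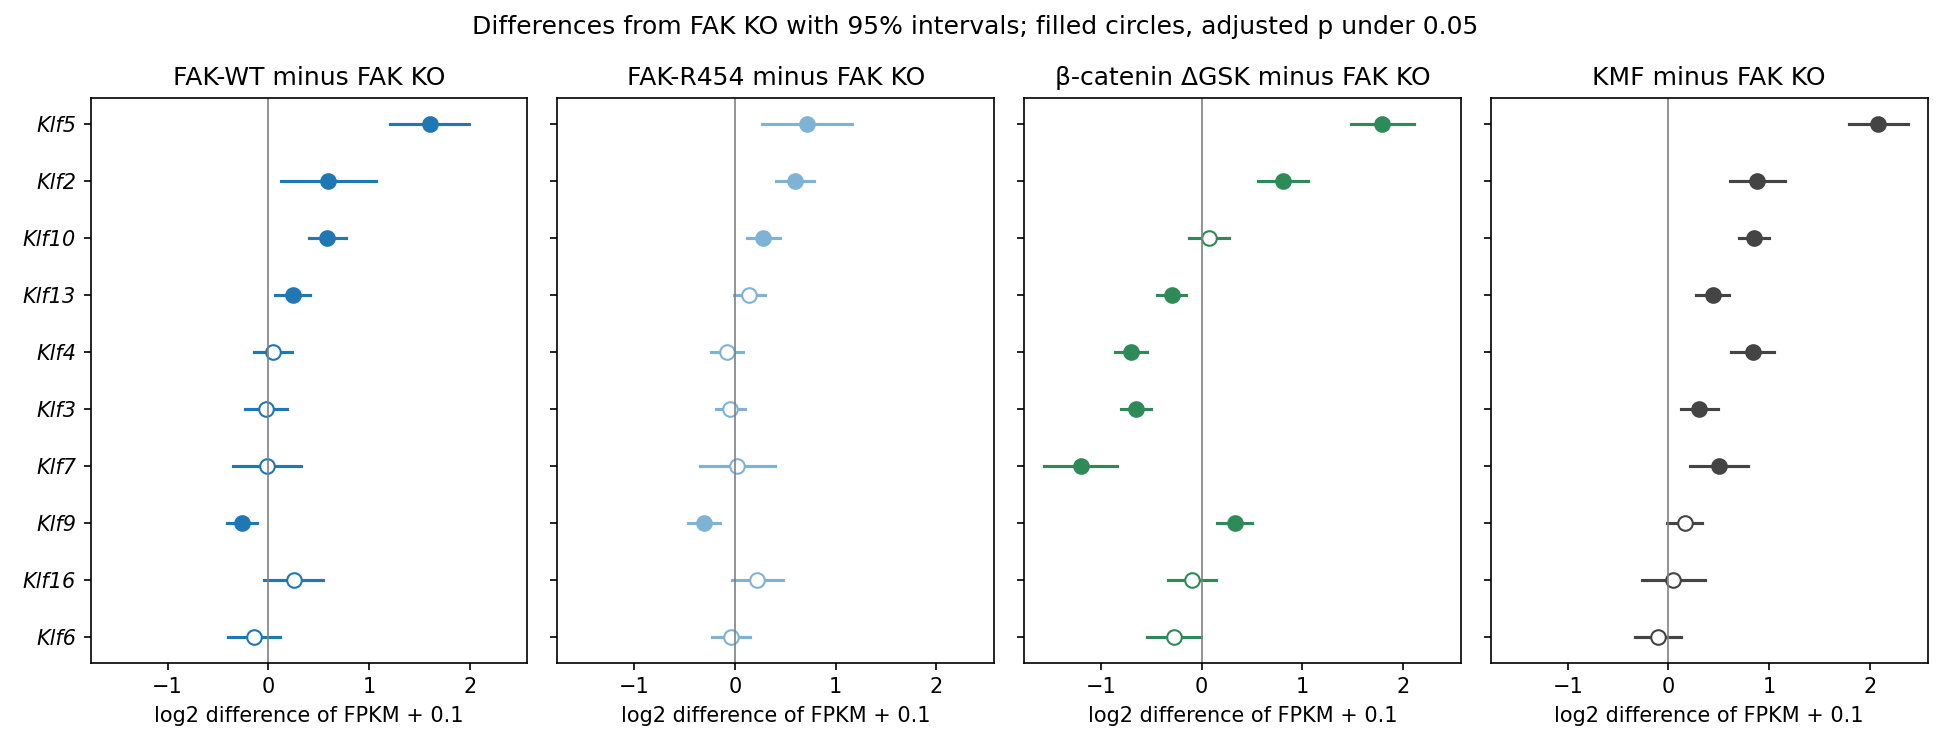
Difference of each member from FAK KO (x axis, log2 of FPKM + 0.1) in the other 4 lines, with 95% intervals from limma. Filled circles mark an adjusted p under 0.05. Klf5 and Klf2 lie to the right of 0 in every panel, and Klf4, Klf3, Klf7 and Klf13 lie to the left only in β-catenin ΔGSK among the called values.

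Klf5, an activator of dividing epithelial cells (chr14:99298691-99313405, plus strand, mm10), had the largest fold between line means among the members (4.68-fold). Its FPKM was 0.772, 0.802 and 0.685 in FAK KO. FAK-R454 had 1.19 and 1.41 and FAK-WT 2.03, 2.58 and 2.94. β-catenin ΔGSK had 2.64, 3.16 and 2.78, and KMF 3.64, 3.73 and 3.21. Each of these lines lay wholly above FAK KO, and FAK-R454 lay wholly between FAK KO and FAK-WT. The log2 difference from FAK KO was 1.60 ± 0.17 (SE, adjusted p = 0.000389) in FAK-WT and 0.72 ± 0.20 (adjusted p = 0.038) in FAK-R454. It was 1.79 ± 0.14 (adjusted p = 1.08e-05) in β-catenin ΔGSK and 2.09 ± 0.13 (adjusted p = 4.89e-06) in KMF. The FAK-R454 call against FAK KO missed the threshold without the low-level filter (adjusted p = 0.0828) and without FAK KO replicate 1 or 3 or either FAK-R454 sample (adjusted p = 0.0503 to 0.278). FAK-WT exceeded FAK-R454 by 0.89 ± 0.18 (adjusted p = 0.0413), a 1.85-fold difference. This last call did not hold without the low-level filter (adjusted p = 0.0801), by limma-voom on the recovered fragments (adjusted p = 0.0515), or without FAK-WT replicate 2 or either FAK-R454 sample (adjusted p = 0.142 to 0.263). Down the order of the lines, β-catenin ΔGSK and FAK-WT did not differ beyond their spread (0.19, 95% interval -0.15 to 0.54).

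Klf2, an activator best known in quiet endothelium and T cells (chr8:72319033-72321656, plus strand), was also lowest in FAK KO, at 8.65, 8.35 and 7.60 FPKM. FAK-WT had 9.08, 11.8 and 17.9 FPKM, with the highest in replicate 3. FAK-R454 had 12.3 and 12.6 FPKM, β-catenin ΔGSK 13.7, 16.8 and 12.9 FPKM, and KMF 15.6, 17.7 and 12.7 FPKM. None of these samples fell to the FAK KO range. The difference from FAK KO was 0.60 ± 0.21 (adjusted p = 0.0479) in FAK-WT and 0.60 ± 0.08 (adjusted p = 0.00239) in FAK-R454. It was 0.80 ± 0.11 (adjusted p = 0.000311) in β-catenin ΔGSK and 0.89 ± 0.12 (adjusted p = 0.000393) in KMF. Without FAK-WT replicate 3 the FAK-WT difference was 0.33 (adjusted p = 0.056), and without FAK KO replicate 1, 2 or 3, or FAK-WT replicate 2, it also missed the threshold (adjusted p = 0.0777 to 0.132). The same held without the low-level filter (adjusted p = 0.102), without a trend (adjusted p = 0.0753) and after chromosome centring (adjusted p = 0.0629). In 1 fit of all 5 lines the FAK-R454 call was lost (adjusted p = 0.0672). FAK-WT and FAK-R454 had similar means of Klf2, with a difference of -0.0020 and a wide 95% interval of -0.64 to 0.63, and of -0.26 (adjusted p = 0.105) without FAK-WT replicate 3. The other neighbours in the order from KMF through β-catenin ΔGSK, FAK-WT and FAK-R454 did not differ beyond their spread either.

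Mapk7, which encodes the kinase ERK5 upstream of Klf2 and Klf4, was at 7.77 to 9.53 FPKM in FAK KO and at 10.6 to 16.2 FPKM in the other lines. Its log2 difference from FAK KO was 0.54 in FAK-WT, 0.55 in FAK-R454, 0.78 in β-catenin ΔGSK and 0.63 in KMF, called in all 4. Against FAK KO, Klf4 was higher in KMF (0.84), lower in β-catenin ΔGSK (-0.70) and not called in FAK-WT or FAK-R454. The part of Mapk7 in the KLF values was not tested. All 7 genes of the ERK5 and MEF2 list were tested. In FAK-WT 1 was higher and 2 lower, and in FAK-R454 1 higher. In β-catenin ΔGSK 1 was higher and 1 lower, and in KMF 3 higher and 2 lower. The shares of all genes called were 40.8%, 19.7%, 58.1% and 51.8% in that order. The list's median differences were 0.0070, 0.05, 0.06 and 0.17 in that order. Thbd (thrombomodulin), a target of Klf2 in endothelium, was at 1.38 to 2.24 FPKM in FAK KO. It was at 0.07 to 0.17 FPKM in β-catenin ΔGSK, 0.856 to 1.68 FPKM in FAK-WT, 2.17 and 2.23 FPKM in FAK-R454 and 13.3 to 14.9 FPKM in KMF, 4 lines in which Klf2 was called higher than in FAK KO. The list of targets of single KLFs holds 10 genes, Thbd among them, of which Krt19 is also an epithelial marker. S1pr1, also listed, averaged 0.007 FPKM in FAK KO and 0.051 (FAK-R454) to 0.466 FPKM (β-catenin ΔGSK) in the other lines. Nos3 averaged 0.407 FPKM in FAK KO and 0.378 (β-catenin ΔGSK) to 0.510 FPKM (FAK-WT) in the others. Both stayed below 1 FPKM and were not tested. In FAK-WT 5 of 7 tested were higher, beside 40.8% of all genes called. In FAK-R454 1 of 7 was lower, beside 19.7%. In β-catenin ΔGSK 3 were higher and 3 lower of 8, beside 58.1%. In KMF 4 were higher and 1 lower of 7, beside 51.8%.

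Immediate early genes are switched on by growth factor signals without new protein synthesis. In FAK-WT 9 of 11 tested were higher than in FAK KO, beside 40.8% of all genes called. Their median difference was 0.57 against -0.08 for all genes. In FAK-R454 4 of 11 were higher, beside 19.7% of all genes. In β-catenin ΔGSK 5 were higher and 1 lower of 10, beside 58.1%. In KMF 7 were higher and 2 lower of 11, beside 51.8%. FAK-WT replicate 3 had the highest Egr1 (10.8 FPKM), Egr3 (3.22 FPKM) and Junb (135 FPKM) of its line. Fos, Fosb, Fosl1, Jun and Egr2 were also highest there, but Ier2, Atf3 and Zfp36 were not. Nr4a1 was lowest there (12.9 FPKM, against 14.1 and 14.4 FPKM in replicates 1 and 2). Of the KLF members, all but Klf7 were highest of the line in this sample. The share of all genes that were highest there was not counted, so this is not read as a trait of the KLFs. The list's summed level was 258 to 334 FPKM in FAK-WT, 174 to 214 in FAK KO, 241 and 247 in FAK-R454, 214 to 235 in β-catenin ΔGSK and 266 to 308 in KMF. Its part in the KLF values was not tested.

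Klf4, a factor of differentiated epithelium and of reprogramming to pluripotency (chr4:55527143-55532466, minus strand), was split between KMF and the clone. KMF had 207, 213 and 169 FPKM, all above every other sample. FAK KO had 103, 110 and 115 FPKM, FAK-WT 103, 110 and 126 FPKM and FAK-R454 100 and 106 FPKM, 3 lines that overlap. β-catenin ΔGSK had 64.7, 71.1 and 65.8 FPKM, all below every other sample. KMF was 0.84 ± 0.10 above FAK KO (adjusted p = 0.00017), while FAK-WT differed from FAK KO by 0.05 (95% interval -0.15 to 0.24, adjusted p = 0.684) and FAK-R454 by -0.08 (95% interval -0.24 to 0.08, adjusted p = 0.412). FAK-WT remained 0.79 below KMF (adjusted p = 0.00139). β-catenin ΔGSK was 0.70 ± 0.07 below FAK KO (adjusted p = 4.22e-05), and 2.90-fold below KMF (adjusted p = 2.18e-06).

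Klf7, an activator first described as ubiquitous and studied mainly in neurons and fat (chr1:64029447-64122282, minus strand), was also highest in KMF and lowest in β-catenin ΔGSK, at a far lower level. It had 1.75 to 2.03 FPKM in KMF, 1.23 to 1.38 FPKM in FAK KO, 1.16 to 1.37 FPKM in FAK-WT, 1.25 and 1.43 FPKM in FAK-R454 and 0.499 to 0.523 FPKM in β-catenin ΔGSK. The β-catenin ΔGSK samples lay wholly below all others, 1.20 ± 0.16 under FAK KO (adjusted p = 0.000282). KMF was 0.50 ± 0.13 above FAK KO (adjusted p = 0.00981). The genes of chromosome 1 as a whole were higher in KMF than in FAK KO, with a median difference of 0.19 against -0.06 elsewhere. With each sample's chromosome median subtracted, the Klf7 difference was 0.31 (adjusted p = 0.0601). FAK-WT and FAK-R454 did not differ from FAK KO beyond their spread.

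Klf3, a CtBP-binding repressor (chr5:64803523-64830129, plus strand), was the second most abundant member in every line but β-catenin ΔGSK, where Klf9 was above it. KMF had 76.0, 78.1 and 64.9 FPKM, FAK KO 57.4, 58.1 and 61.2 FPKM, FAK-WT 53.9, 53.9 and 67.1 FPKM and FAK-R454 56.0 and 58.1 FPKM. β-catenin ΔGSK had 35.1, 39.0 and 38.0 FPKM, below every other sample. Its difference from FAK KO was -0.65 ± 0.07 (adjusted p = 5.31e-05), or -0.34 after chromosome centring, since chromosome 5 genes had a median of -0.32 in this comparison against -0.07 elsewhere. KMF was 0.31 ± 0.08 above FAK KO (adjusted p = 0.0124), a call that missed the threshold without KMF replicate 1 or 2 and was larger after chromosome centring (0.49, adjusted p = 0.00155). The unstranded library does not separate Klf3 from Gm20033 on the opposite strand (0.653 to 4.99 FPKM), which overlaps its start.

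Klf13, a Sin3A-binding factor first studied in T cells (chr7:63886347-63938915, minus strand), shared the low level in β-catenin ΔGSK. Its FPKM was 36.7, 36.9 and 32.5 in KMF, 25.1, 26.1 and 26.8 in FAK KO, and 29.3, 29.2 and 33.9 in FAK-WT. It was 27.8 and 29.6 in FAK-R454 and 20.5, 21.3 and 21.6 in β-catenin ΔGSK. β-catenin ΔGSK lay wholly below FAK KO (-0.30 ± 0.06, adjusted p = 0.00368), and FAK-WT, FAK-R454 and KMF wholly above it. The FAK-R454 difference was not called (0.14, adjusted p = 0.168). FAK-WT was higher by 0.24 ± 0.08 (adjusted p = 0.033), a call lost without the low-level filter, without a trend (adjusted p = 0.055), after chromosome centring (0.16, adjusted p = 0.15) and without each sample in turn other than FAK-WT replicate 1. KMF was higher by 0.44 ± 0.07 (adjusted p = 0.00108). Gm27252 on the opposite strand (0.205 to 1.06 FPKM) overlaps Klf13.

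Across the 14 samples, the log2 levels of Klf3, Klf4, Klf7 and Klf13 correlated at r = 0.90 to 0.95 with each other. Klf2 and Klf5 correlated at r = 0.845, and neither exceeded r = 0.26 with those 4. These correlations describe 14 samples of 5 lines, 4 of them from clone KT13, and follow line means, so no p is given. Klf10 correlated with Klf13 at r = 0.83. The lowest value of any pair was r = -0.48, between Klf9 and Klf16.

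**Figure D3:**
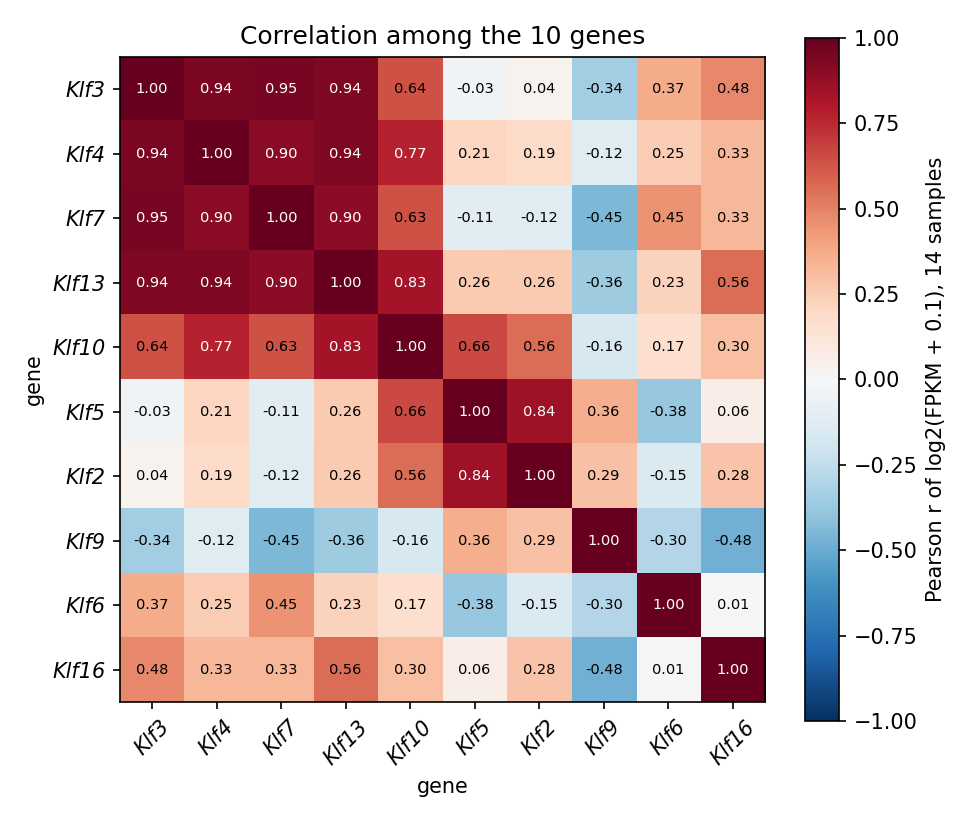
Pearson r between the log2(FPKM + 0.1) of each pair of members over 14 samples. The block of Klf3, Klf4, Klf7 and Klf13 holds values of 0.90 to 0.95, and Klf2 with Klf5 stands at 0.845.

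Tek, the angiopoietin receptor, was likewise highest in KMF and lowest in β-catenin ΔGSK. It was at 28.7 to 28.8 FPKM in KMF, 16.6 to 18.1 FPKM in FAK KO and 6.29 to 7.25 FPKM in β-catenin ΔGSK, and made up nearly all of the endothelial marker sum (29.6 to 29.99, 18.0 to 19.3 and 6.68 to 7.64 FPKM). In FAK-WT that sum was 17.5 to 18.7 FPKM and in FAK-R454 17.3 and 17.9 FPKM. The defining endothelial markers Cdh5 and Kdr were at or near 0, with at most 0.04 FPKM in any sample. The fibroblast marker Pdgfra was also lower in β-catenin ΔGSK (0.77 to 0.86 FPKM) than in FAK KO (2.65 to 3.25 FPKM). All 3 fibroblast markers tested were lower there, beside 58.1% of all genes called in either direction. All samples were cultures of KMF cells or of clone KT13 and its derivatives, so these markers are given as transcripts of the cultures, not as cell types. Whether fewer of the cultured cells expressed them or each held less RNA cannot be told apart in bulk samples. The part of such shifts in the KLF values was not tested.

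The promoters of the genes that moved together are shown to compare the sequences they themselves carry for KLF and Sp proteins. RefSeq (GRCm38.p6) gives windows of 300 bases around an annotated start, most of each upstream of it, for 7 of the 10 members (Klf2, Klf3, Klf4, Klf6, Klf7, Klf9 and Klf13), and none of Klf5, Klf10 and Klf16 was used. The Klf7 window is set on a start inside the bounds the table gives for the gene, so all of it lies within those bounds. Capitals mark CACCC and the GC box GGGCGG on either strand, which can adjoin or overlap each other. The windows are Klf3 at chr5:64803271-64803570 (plus strand), Klf4 at chr4:55532426-55532725 (minus strand), Klf7 at chr1:64121340-64121639 (minus strand), Klf13 at chr7:63938866-63939165 (minus strand) and, from the pair with the other pattern, Klf2 at chr8:72318812-72319111 (plus strand).
Klf3: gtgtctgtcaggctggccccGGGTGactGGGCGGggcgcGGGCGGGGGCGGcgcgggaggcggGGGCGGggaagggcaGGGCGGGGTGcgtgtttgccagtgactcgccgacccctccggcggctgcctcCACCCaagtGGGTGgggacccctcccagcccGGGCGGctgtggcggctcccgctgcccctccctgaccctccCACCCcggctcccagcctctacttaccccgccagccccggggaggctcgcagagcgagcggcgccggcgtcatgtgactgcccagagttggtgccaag
Klf4: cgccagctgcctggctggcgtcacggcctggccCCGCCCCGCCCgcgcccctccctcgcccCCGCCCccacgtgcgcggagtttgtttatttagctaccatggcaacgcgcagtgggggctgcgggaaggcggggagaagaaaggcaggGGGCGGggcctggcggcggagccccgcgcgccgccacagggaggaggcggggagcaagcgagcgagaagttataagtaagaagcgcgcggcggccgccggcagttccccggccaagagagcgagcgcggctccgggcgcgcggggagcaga
Klf7: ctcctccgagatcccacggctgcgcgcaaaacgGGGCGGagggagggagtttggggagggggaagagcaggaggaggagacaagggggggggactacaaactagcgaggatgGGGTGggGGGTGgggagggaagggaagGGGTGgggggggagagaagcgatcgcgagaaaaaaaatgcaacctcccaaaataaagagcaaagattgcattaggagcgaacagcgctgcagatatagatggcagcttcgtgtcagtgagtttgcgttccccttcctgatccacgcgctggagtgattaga
Klf13: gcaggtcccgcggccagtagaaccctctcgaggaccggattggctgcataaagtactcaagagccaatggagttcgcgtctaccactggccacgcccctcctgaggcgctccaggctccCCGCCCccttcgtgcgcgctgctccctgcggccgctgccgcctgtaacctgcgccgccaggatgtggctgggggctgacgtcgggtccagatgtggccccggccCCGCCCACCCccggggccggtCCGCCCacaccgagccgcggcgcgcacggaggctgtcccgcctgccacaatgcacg
Klf2: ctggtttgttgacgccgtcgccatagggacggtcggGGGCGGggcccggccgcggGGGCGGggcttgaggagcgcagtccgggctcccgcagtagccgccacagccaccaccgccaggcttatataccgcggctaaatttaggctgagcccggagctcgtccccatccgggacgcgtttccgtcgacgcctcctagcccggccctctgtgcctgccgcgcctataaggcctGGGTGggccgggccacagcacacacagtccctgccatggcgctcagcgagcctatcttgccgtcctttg
GGGCGG was found in 6 of the 7 member windows, all but Klf9, beside 35.7% of all 32851 windows of this length. CACCC was found in 5 of 7, all but Klf4 and Klf6, beside 57.5% of all windows. Klf3 had the most, with 5 CACCC and 6 GC-box matches. The member windows were 58.3% to 76.7% G and C, against a median of 52.7% over all windows. The TCF/LEF letters CTTTGA were found in 1 of 7, Klf6, beside 16% of all windows. The AP-1 letters TGACTCA (5.2% of all windows), the CRE letters TGACGTCA (1.79%) and the letters TATAAA (13.6%) were found in 0 of 7. A match is a description of letters and not a bound site.

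Klf9, a Sin3A-binding factor induced by glucocorticoids and thyroid hormone (chr19:23141226-23166911, plus strand), went the other way. It was lowest in FAK-WT, with 30.3, 30.5 and 32.0 FPKM, and FAK-R454, with 29.8 and 30.2 FPKM. FAK KO had 35.8, 36.2 and 39.4 FPKM, KMF 42.4, 44.5 and 37.8 FPKM and β-catenin ΔGSK 49.5, 42.9 and 47.6 FPKM. All samples of both FAK lines lay below all FAK KO samples, and all of β-catenin ΔGSK above them. The difference from FAK KO was -0.26 ± 0.06 (adjusted p = 0.0137) in FAK-WT, -0.31 ± 0.07 (adjusted p = 0.0187) in FAK-R454 and 0.33 ± 0.08 (adjusted p = 0.0055) in β-catenin ΔGSK. KMF overlapped FAK KO (0.16, adjusted p = 0.113). The difference was called after chromosome centring (0.41, adjusted p = 0.0026) and without KMF replicate 3 (0.23, adjusted p = 0.0234). Under median-of-ratios scaling the FAK-WT difference was -0.19 (adjusted p = 0.0503). That call also missed the threshold without FAK KO replicate 3 or FAK-WT replicate 1 or 2 (adjusted p = 0.0504 to 0.0732), and the FAK-R454 call without FAK KO replicate 3 or either FAK-R454 sample (adjusted p = 0.0913 to 0.183).

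Of the 7 glucocorticoid genes, 6 were tested. In β-catenin ΔGSK 2 were higher and 3 lower than in FAK KO, beside 58.1% of all genes called. Among them were Nr3c1, the glucocorticoid receptor itself (31.2 to 15.4 FPKM, -1.02, adjusted p = 7.48e-05), and the kinase gene Sgk1 (35.4 to 76.8 FPKM, 1.11, adjusted p = 8.48e-05). In FAK-WT 2 were higher and 1 lower (40.8% of all genes called), in FAK-R454 2 higher (19.7%), and in KMF 1 higher (51.8%). The median differences were -0.34 in β-catenin ΔGSK, 0.20 in each FAK line and 0 in KMF.

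Klf10, a Sin3A-binding factor known as an early gene of TGF-β (chr15:38294413-38300707, minus strand), was highest in KMF at 45.2, 44.6 and 46.6 FPKM. FAK-WT had 35.1, 37.1 and 41.6 FPKM and FAK-R454 30.1 and 31.2 FPKM. FAK KO had 26.8, 25.2 and 23.7 FPKM and β-catenin ΔGSK 28.8, 27.3 and 23.7 FPKM. The first 3 lines did not overlap each other or FAK KO, while β-catenin ΔGSK overlapped FAK KO. The difference from FAK KO was 0.58 ± 0.08 (adjusted p = 0.00124) in FAK-WT, 0.28 ± 0.07 (adjusted p = 0.0316) in FAK-R454, 0.85 ± 0.07 (adjusted p = 1.83e-05) in KMF and 0.07 ± 0.09 (adjusted p = 0.502) in β-catenin ΔGSK. The FAK-R454 call missed the threshold without the low-level filter (adjusted p = 0.0594), without a trend (adjusted p = 0.0652) and without FAK KO replicate 3 or either FAK-R454 sample (adjusted p = 0.129 to 0.226). FAK-WT and FAK-R454 differed by 0.30 ± 0.08 (adjusted p = 0.0751), or by 0.23 (adjusted p = 0.00767) without FAK-WT replicate 3.

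Klf10 lies on chromosome 15, which also carries Ptk2. In FAK-WT against FAK KO, the 479 chromosome 15 genes tested had a median difference of 0.30, against -0.09 for genes elsewhere. In FAK-R454 the medians were 0.14 and -0.04, in KMF 0.06 and -0.05, and in β-catenin ΔGSK 0.01 and -0.09. With each sample's chromosome median subtracted, the Klf10 difference was 0.28 in FAK-WT (adjusted p = 0.056) and 0.13 in FAK-R454 (adjusted p = 0.326), so neither was called. In KMF it was 0.79 (adjusted p = 7.3e-05). The part of DNA copy number was not tested.

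**Figure D4:**
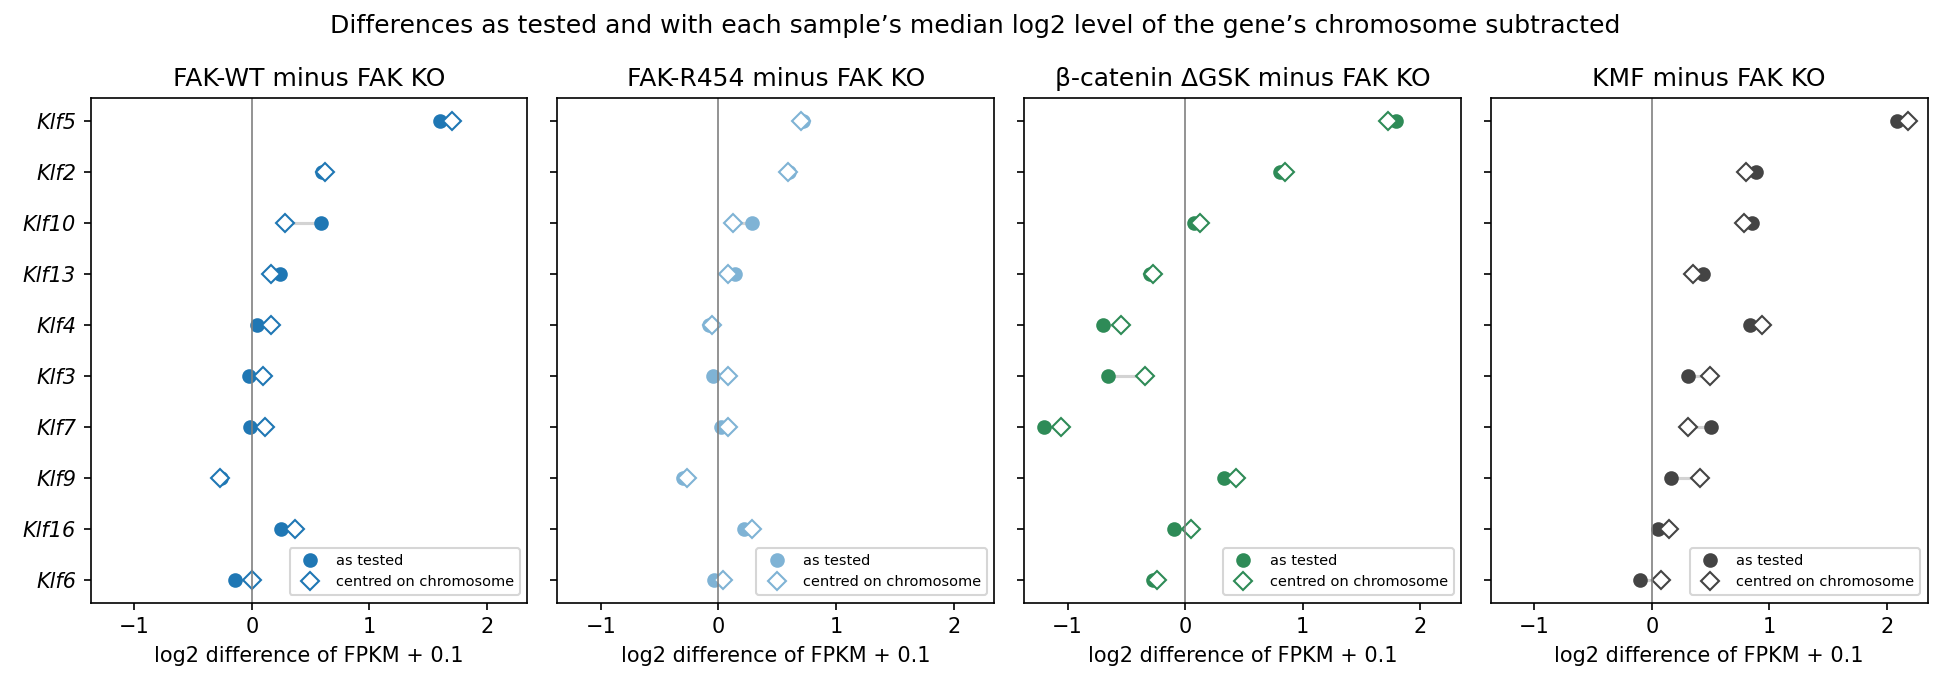
Difference of each member from FAK KO on the log2(FPKM + 0.1) scale as tested (filled circles) and with each sample's median log2 level of the gene's chromosome subtracted (open diamonds). Klf10 moves from 0.58 to 0.28 in FAK-WT, and Klf3 from -0.65 to -0.34 in β-catenin ΔGSK, while Klf5 stays at 1.60 or above in FAK-WT, β-catenin ΔGSK and KMF.

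Among the 11 TGF-β pathway genes, all tested, 8 were lower and 1 higher in β-catenin ΔGSK than in FAK KO, beside 58.1% of all genes called. Their median was -0.66 against -0.09 for all genes. Both receptor genes fell, Tgfbr1 from 53.5 to 18.9 FPKM and Tgfbr2 from 82.8 to 36.2 FPKM. The early target Skil fell as well, from 9.98 to 2.99 FPKM, with adjusted p of 5.63e-07 to 2.26e-05 over these 3, whereas Klf10 was not called. In FAK-WT 2 were higher and 4 lower (40.8% of all genes called), in FAK-R454 2 higher (19.7%), and in KMF 3 higher and 3 lower (51.8%). Tgfb1 and Tgfb3 were the ligand genes higher in FAK-WT, FAK-R454 and KMF.

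Klf6, an activator induced in wounded tissue (chr13:5861489-5870393, plus strand), was not called in any of the 10 pairs of lines. Its samples spanned 12.8 to 16.2 FPKM in KMF, 14.6 to 16.6 FPKM in FAK KO, 12.2 to 16.4 FPKM in FAK-WT and 11.1 to 15.1 FPKM in β-catenin ΔGSK, with 14.97 and 14.66 FPKM in FAK-R454. In β-catenin ΔGSK against FAK KO the difference was -0.27 (95% interval -0.54 to -0.0036, adjusted p = 0.0761; -0.40 and adjusted p = 0.00439 without β-catenin ΔGSK replicate 1), and without FAK-WT replicate 3 the FAK-WT difference from FAK KO reached -0.26 (adjusted p = 0.0393) and that from FAK-R454 -0.22 (adjusted p = 0.0206).

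Klf16, a Sin3A-binding factor of the dopamine receptor promoter (chr10:80567124-80577321, minus strand), was not called against FAK KO in any line. It had 13.1 to 17.3 FPKM in FAK KO, 12.9 to 17.8 FPKM in KMF, 16.2 to 21.4 FPKM in FAK-WT, 17.6 and 17.7 FPKM in FAK-R454 and 13.4 to 14.9 FPKM in β-catenin ΔGSK. Both FAK-R454 samples lay above all FAK KO samples, a difference of 0.22 (adjusted p = 0.188) that reached 0.31 (adjusted p = 0.0219) without FAK KO replicate 2. β-catenin ΔGSK was 0.35 below FAK-WT (adjusted p = 0.0267) and 0.31 below FAK-R454 (adjusted p = 0.011). Both calls were lost when single samples were left out, β-catenin ΔGSK replicate 1 or 2 for the first and either FAK-R454 sample for the second, which was also lost after chromosome centring (-0.24, adjusted p = 0.0576) and in 1 fit of all 5 lines (adjusted p = 0.0879).

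Among the remaining pairs, β-catenin ΔGSK differed from FAK-WT in 7 of 10 members (1 higher, 6 lower), beside 50.8% of all genes (Klf10 among them moved from -0.51 to -0.14 after chromosome centring, adjusted p = 0.27), and from FAK-R454 in 7 (2 higher, 5 lower), beside 49% of all genes. It differed from KMF in 6, all lower, beside 56.9% of all genes. Of these, Klf5 (-0.29, adjusted p = 0.0488) missed the threshold without the low-level filter, with median-of-ratios scaling, in 1 fit of all 5 lines and by limma-voom (adjusted p = 0.0774 to 0.115), and without KMF replicate 1 or 2 or β-catenin ΔGSK replicate 1 or 3 (adjusted p = 0.0959 to 0.153). FAK-WT differed from KMF in 6, all lower (41.6% of all genes), and FAK-R454 in 7, all lower (43.6% of all genes). Klf3, Klf4, Klf5, Klf7, Klf9 and Klf10 were lower than KMF in both FAK lines, and Klf13 in FAK-R454. FAK-WT counts against KMF fell to 3 without KMF replicate 1 or 2, or FAK-WT replicate 1 or 2, and FAK-R454 counts to 4 without either FAK-R454 sample. Klf3 against KMF in FAK-WT also missed the threshold without the low-level filter, without a trend, with median-of-ratios scaling and by limma-voom (adjusted p = 0.064 to 0.0791), and Klf5 there without the filter (adjusted p = 0.058) and by limma-voom (adjusted p = 0.0519). In FAK-R454, Klf7 against KMF missed the threshold without the low-level filter (adjusted p = 0.0568) and without KMF replicate 2 (adjusted p = 0.061). Klf13 did so without KMF replicate 1 or 2 (adjusted p = 0.0641 and 0.0529), and Klf3 without KMF replicate 1 (adjusted p = 0.0628). After chromosome centring Klf7 was no longer called against KMF in FAK-WT (-0.19, adjusted p = 0.234) or FAK-R454 (-0.23, adjusted p = 0.185).

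Of the 7 KLF genes that were not members, Klf8, Klf14 and Klf17 were at 0 FPKM in every sample, and Klf15 and Klf1 reached at most 0.346 FPKM. Klf11, a Sin3A-binding relative of Klf10, was at 3.79 to 5.59 FPKM. It was higher than FAK KO in β-catenin ΔGSK (0.44, adjusted p = 0.00192) and KMF (0.31, adjusted p = 0.0252). Klf12, a CtBP-binding repressor, had 1.20 and 1.09 FPKM in FAK-R454 and 0.192 to 0.207 FPKM in FAK KO. That difference of 2.06 ± 0.28 (adjusted p = 0.00245) passed the 2-fold call, and the gene was tested only in comparisons with FAK-R454, where it was high. FAK-WT had 0.542, 0.361 and 0.480 FPKM of Klf12, 1.16 below FAK-R454 (adjusted p = 0.0386).

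The Sp factors, the sister family with the same fingers, summed to 52.5 to 61.1 FPKM in every sample. Of 5 tested, 1 was higher and 1 lower in FAK-WT, and 0 changed in FAK-R454 and in KMF. In β-catenin ΔGSK 1, Sp9, rose from 2.22 to 7.96 FPKM (adjusted p = 1.16e-06). The shares of all genes called were 40.8%, 19.7%, 51.8% and 58.1% in that order of lines. Among 10 cofactor and ubiquitin ligase genes, the corepressor scaffold Sin3a and the CtBP genes Ctbp1 and Ctbp2 were not called in any comparison with FAK KO. Sin3b was lower than in FAK KO in every other line. It had 57.1 to 62.8 FPKM in FAK KO, 31.9 to 39.0 FPKM in FAK-WT, 42.7 and 45.3 FPKM in FAK-R454, 27.9 to 32.8 FPKM in β-catenin ΔGSK and 22.5 to 23.9 FPKM in KMF. In each of these comparisons 1 of 10 cofactor genes was higher, and the shares of all genes called are those just given. Sin3b was among the 3 lower ones in FAK-WT, the 2 in β-catenin ΔGSK and the 2 in KMF, and the only 1 in FAK-R454.

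Genes whose log2 levels ran most like each member over the 14 samples were read from 12255 expressed genes, as a description of likeness without a test. Jag2 (r = 0.99) and Hpse (0.97) were nearest to Klf5, Tmco4 (0.98) and Fbn1 (0.98) to Klf4, and Tbc1d4 (0.98) and Mycn (0.98) to Klf3. Tulp4 (0.99) and Pld1 (0.99) were nearest to Klf7, Fzd1 (0.98) and Sema4b (0.97) to Klf13, and Atp2b4 (0.97) and Aim1 (0.96) to Klf10. Klf9 ran most like Mrps2 (0.96) and Rfx7 (0.96), Klf16 like Cope (0.94) and Rela (0.93), Klf2 like Kdm4b (0.91) and Foxc1 (0.91), and Klf6 like Mob1a (0.88) and Ikbip (0.88).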

How the data were processed

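The authors deposited 1 table of FPKM values per gene for 14 samples, made at Novogene from poly(A) RNA with the NEBNext Ultra kit, which does not mark strand. The study's methods name TopHat2 as the aligner, whereas the submitters' processing notes name CASAVA 1.8, STAR 2.5, DESeq2 and build mm10. The aligner is therefore uncertain, and so is the splitting of reads that match more than 1 gene.

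FPKM times gene length, divided by its smallest step, gave whole fragments for all values (tolerance 0.01), which set the depth. Lines were compared 2 at a time in limma 3.58.1 (R 4.3.3; lmFit and eBayes with trend) on log2(FPKM + 0.1), for genes with a mean above 1 FPKM in at least 1 line, with Benjamini-Hochberg adjustment over all genes tested. With 3 samples against 3 or 2, exact permutation of one gene cannot go below p = 0.1. On simulated data the test recovered the genes changed by design but made more false calls than its nominal rate, most of them in genes with few fragments. The limit on false calls that this check had to meet was loosened after that result was seen. Calls with an adjusted p just under 0.05 are therefore less certain than that value states. The members have at least 33 fragments in every library, and Klf5 in FAK KO has the fewest (33 to 40).

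The members and gene lists were chosen with earlier results of these data known. The text names all members, the label checks, list genes with a 2-fold call against FAK KO or that bear on a stated value, and the 2 genes with the highest Pearson r for each member. Cd68, Pdgfra and other markers stand in the marker lists. The methods describe triplicates, and 2 FAK-R454 samples were analysed here. Some list genes are not reported here. Alternatives are in the closing section.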

Additional observations from a re-analysis of the deposited data

How the results depend on the processing

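Across 9 alternative settings and the omission of single samples, 83 single-gene differences were refitted 1192 times. Shares of all genes called in these refits were not counted, so a loss among the members cannot be set against the loss over all genes. Called differences kept their direction in every refit that could be made, and 96 refits lost a call while 11 gained one. In 41 refits a difference near 0, called in neither fit, changed sign. The number of members changed in FAK-WT against FAK KO, 5 as tested, was 3 with no filter, 3 with no trend and 2 with chromosome centring, and 2 to 4 with single samples left out. In FAK-R454 against FAK KO, 4 as tested, it was 2 with no filter and 1 to 5 with samples left out. In FAK-WT against FAK-R454, 1 as tested, it was 0 with no filter, with a filter at 5 FPKM and by limma-voom on recovered fragments, and 0 to 3 with samples left out. Against KMF it ranged from 3 to 8 for FAK-WT and from 4 to 9 for FAK-R454 with samples left out.

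The number of members past the 2-fold call fell from 1 to 0 in FAK-WT against FAK KO with a pseudocount of 1, and from 2 to 1 in β-catenin ΔGSK. A filter at 5 FPKM leaves Klf5 and Klf7 untested, which gives 0 in both and 0 in KMF against FAK KO. With samples left out it ranged from 1 to 2 in KMF against FAK KO and from 0 to 1 in FAK-WT against FAK-R454.

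The deviations of samples with the same replicate number correlated at r from -0.23 to 0.41, and in no comparison of 3 pairs above 0.1 in every pair, so the numbers are not taken as pairs. They came nearest to it in β-catenin ΔGSK against FAK KO (0.078 to 0.41), where the replicate block added a call of Klf6 (-0.27, adjusted p = 0.0066). A fit with the replicate block, which leaves out the third sample of the other line where FAK-R454 has 2, called 1 member in FAK-R454 against FAK KO and 4 in FAK-WT against FAK-R454, where Klf3 was at -0.082 and Klf16 at -0.088 in place of a positive value. The calls gained in FAK-WT against FAK-R454 were Klf2 (-0.26, adjusted p = 0.0408), Klf6 (-0.22, adjusted p = 0.0227) and Klf10 (0.23, adjusted p = 0.00493). The block also lost Klf5, Klf9 and Klf10 in FAK-R454 against FAK KO (adjusted p = 0.107 to 0.194), Klf3 and Klf5 in FAK-WT against KMF (0.0956 and 0.0527) and Klf5 in β-catenin ΔGSK against KMF (0.074). No count was moved by the replicate block in the other comparisons by over 1.5 times.

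Signs of uncalled values changed as follows. In FAK-WT against FAK KO, Klf3 was 0.050 and Klf7 0.050 with median-of-ratios scaling, 0.046 and 0.053 by limma-voom, and 0.094 and 0.12 with chromosome centring, where Klf6 was 0.0057. Chromosome centring gave Klf3 0.082 and Klf6 0.038 in FAK-R454, and Klf6 0.078 in KMF, against FAK KO. Klf16 in β-catenin ΔGSK against FAK KO was 0.0095 with median-of-ratios scaling and 0.047 with chromosome centring. In FAK-WT against FAK-R454, Klf2 was 0.0015 with a pseudocount of 1, 0.044 with median-of-ratios scaling, 0.046 by limma-voom and 0.015 with chromosome centring, Klf7 was 0.0016 with median-of-ratios scaling and 0.023 with chromosome centring, and Klf9 was -0.030 with chromosome centring. With single samples left out, the range in FAK-WT against FAK KO was -0.13 to 0.030 for Klf3, -0.033 to 0.11 for Klf4 and -0.062 to 0.056 for Klf7. In FAK-R454 against FAK KO it was -0.071 to 0.023 for Klf6 and -0.070 to 0.12 for Klf7, and in KMF against FAK KO -0.055 to 0.19 for Klf16. In FAK-WT against FAK-R454 it was -0.26 to 0.22 for Klf2, -0.082 to 0.075 for Klf3, -0.14 to 0.053 for Klf7 and -0.088 to 0.11 for Klf16. The median difference of all genes lay between -0.09 and 0.01 in every comparison. The cause of these shifts was not tested.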
